A study of Mus musculus with 20 samples.

Results

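Granulocyte-monocyte progenitors (GMP) were compared with lymphoid-primed multipotent progenitors (LMPP) sorted from mouse bone marrow. The arrays were chosen by their titles alone, 3 of GMP and 2 of LMPP, which makes 5 of the 20 arrays of the series. The series profiled bone marrow progenitors, pro-B cells and CD4 T cells of wild-type mice, together with natural killer (NK) cells of Rag2-deficient mice with or without Ets1, and its stated purpose concerned Ets1 in NK cells. The GMP and LMPP arrays, and the 3 arrays of common lymphoid progenitors (CLP) set beside them here, all came from wild-type C57bl/6 mice aged 8 to 14 weeks, and no treatment is named. The sort gates, the number of animals and any pooling are not given in the sources used here. RNA was amplified by repeated in vitro transcription and labelled with biotin before hybridisation to Affymetrix mouse arrays, which carry short probes near the 3′ end of each transcript.

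LMPP are early progenitors with high Flt3 that still form granulocytes, monocytes and lymphocytes but have largely given up the megakaryocyte and erythroid routes. GMP are a later stage from which neutrophils, monocytes and related myeloid cells arise. The transcription factors PU.1 and C/EBPα drive the myeloid route, while E proteins, Ikaros and Notch signals drive the lymphoid one, and both programmes are known to be active at a low level in LMPP.

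Levels are given as log2 intensity, and differences as GMP minus LMPP in log2 units with the standard error (SE) of limma's moderated model. Adjusted p-values come from limma with Benjamini-Hochberg adjustment over 13479 tested genes, and a gene is called where its adjusted p lies below 0.05. Each gene is read on its probe set of highest mean, and levels of different genes are not compared. Array medians of the GMP and LMPP arrays lay between 3.79 and 3.86, so a level near 3 or 4 is close to the array's background and its difference is compressed. Replicates correlated at 0.994 to 0.997 in GMP and at 0.987 in LMPP, and arrays of GMP and LMPP at 0.894 to 0.902 with each other. Nothing in the labels states that replicate arrays were made from different mice, and the p-values cover only the variation among these arrays, which may be technical.

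The GMP arrays carried a stronger 3′ bias than the LMPP arrays. The 3′ signal of the actin control lay above its 5′ signal by 6.44 to 6.68 log2 units in GMP, against 1.92 and 2.10 in LMPP. For the Gapdh control the gap was 5.35 to 5.69 in GMP, against 2.36 and 2.78 in LMPP. This ratio does not overlap between the groups, so it cannot be told apart from the cell type within these 5 arrays. CLP arrays 1 and 3 also had high actin ratios (5.20 and 5.27) and CLP array 2 a lower one (3.26). A fit with the actin ratio as a covariate, added after the data had been seen, takes its slope from arrays of the other groups, largely CLP, and is quoted below as the fit with the actin covariate.

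The labels were set against genes that define the sorts. Fcgr3, the Fc receptor that marks GMP, measured 9.21, 9.08 and 8.90 in the GMP arrays, against 3.10 and 3.55 in the LMPP arrays. Flt3, the cytokine receptor that marks LMPP, measured 6.40, 6.46 and 6.36 in the GMP arrays, against 11.0 and 10.99 in the LMPP arrays. Both genes separated the groups without overlap, with differences of 5.74 ± 0.28 (adjusted p = 3.22e-11) and -4.59 ± 0.39 (adjusted p = 6.38e-08). Fcgr2b, which is stained together with Fcgr3, was higher by 2.22 ± 0.26, while the stem cell factor receptor Kit was not called (-0.60 ± 0.45, adjusted p = 0.354). Cd34, a surface antigen of both populations, went against that with lower levels in GMP, 8.80, 8.59 and 8.28 in the GMP arrays, against 11.66 and 11.63 in the LMPP arrays, and its difference of -3.08 ± 0.41 was no longer called with the actin covariate (-1.54). Of the 9 sort antigens tested (11 listed) 2 were higher and 3 lower, the third lower one being Il7r, while Cd48 (-1.31 ± 0.49), Slamf1 (0.01 ± 0.24) and the main probe set of Vcam1 (0.11 ± 0.22) were not called. Vcam1 has no single reading here, since another of its probe sets was higher, at a mean of 7.14 in GMP and 2.83 in LMPP, a difference of 4.31 ± 0.35 (adjusted p = 1.26e-07 over probe sets), and the mean over its probe sets differed by 1.45. Ly6a was not analysed here.

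Of 13479 genes tested, 2150 were higher and 1749 lower in GMP than in LMPP, which is 28.9% called, 16% higher and 13% lower. With each array centred on 19 housekeeping genes the split was 2455 higher and 1080 lower, or 69.4% of calls higher against 55.1% in the main fit, and the median over all genes was 0.10 with that centring and -0.04 in the main fit. In the actin covariate fit 1873 genes were higher and 564 lower. Of the 3899 called genes 1347 were then still called in the same direction, and 3545 kept their sign. Without LMPP array 1 the counts were 1319 and 954, and without LMPP array 2 they were 1290 and 1101. For 69.5% of the genes tested the GMP and LMPP arrays had no overlap.

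The largest gain was in Ms4a3, which encodes a membrane protein of granulocyte-monocyte progenitors. It measured 11.17, 11.29 and 11.23 in the GMP arrays, against 3.82 and 4.0 in the LMPP arrays, a difference of 7.32 ± 0.38 (adjusted p = 6.8e-11). S100a8, a subunit of the neutrophil protein calprotectin, measured 10.78, 10.63 and 10.74 in the GMP arrays, against 3.73 and 3.29 in the LMPP arrays, a difference of 7.20 ± 0.42 (adjusted p = 5.05e-10). Both lay near background in LMPP and far above it on every GMP array. Sgms2, a sphingomyelin synthase, followed at 6.83 ± 0.20, then Gda at 6.53 ± 0.44, a guanine deaminase, and Igsf6 at 6.39 ± 0.24. The other genes among the 15 largest gains were Prom1, Hp, Chil3, Trem3, Met, Fcgr3, Megf9, F13a1, Clec4a2 and Cybb, with differences between 5.46 and 6.18.

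The largest loss was a lymphoid enzyme. Dntt, the terminal transferase that adds bases at the joints of antigen receptor genes, measured 4.72, 4.66 and 4.72 in the GMP arrays, against 12.72 and 12.76 in the LMPP arrays, a difference of -8.04 ± 0.35 (adjusted p = 6.38e-12). The next were the chemokine Ccl3 at -7.45 ± 0.46 and several rapidly induced genes: the transcription factors Egr1 (-6.87), Fosb (-5.94) and Jun (-5.48), the mRNA decay factor Zfp36 (-6.61), the G protein regulator Rgs1 (-6.48), the cytokine signalling inhibitor Socs3 (-6.18), Nfkbiz (-5.0) and the phosphatase Dusp1 (-4.60). Vldlr, Ddx4, Car2, Rps15 and Flt3 completed the 15 largest losses, between -5.69 and -4.59. Of these 30 genes, Ddx4 (-0.94) and Car2 (-2.17) were no longer called with the actin covariate.

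**Figure D1:**
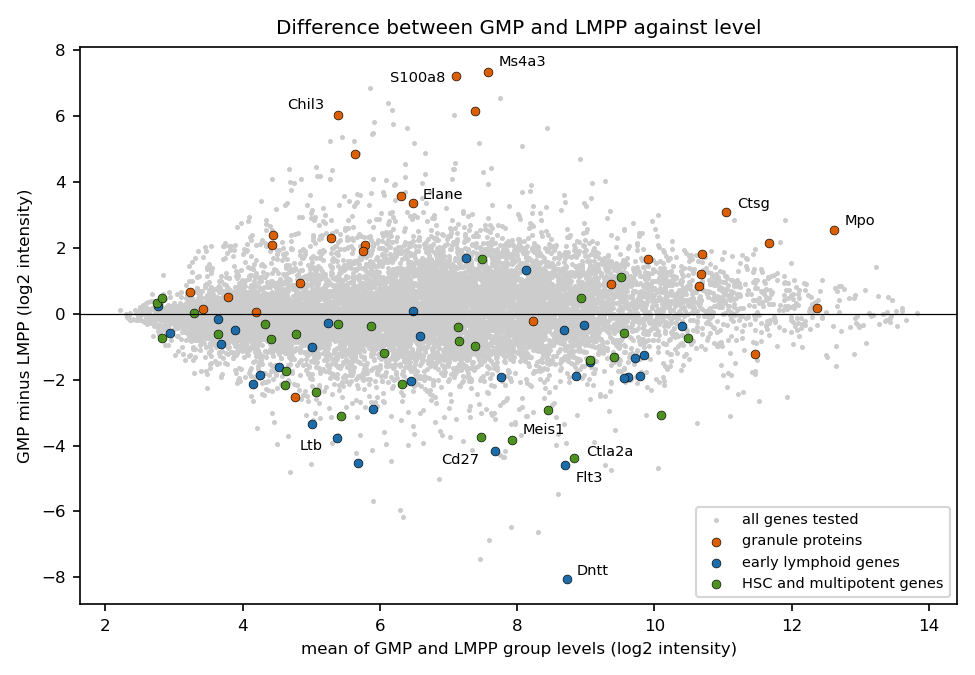
Difference between GMP and LMPP (log2 units) plotted against the mean of both group levels (log2 intensity) for 13479 tested genes in grey, with granule protein, early lymphoid and stem cell genes in colour. Ms4a3 and S100a8 stand above 7 and Dntt below -8, and granule genes lie mostly above 0 while early lymphoid and stem cell genes lie mostly below it.

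Sequences are shown upstream of 6 members of the granule protein lists, all higher in GMP, and of 2 early lymphoid members, both lower. These genes were chosen with their values known, and some other members of the lists were not called or went the other way. The sequences are RefSeq promoters of the build GRCm38.p6, the 250 bases before each annotated start, 5′ to 3′ on the gene's strand. In the first 6 the capitals mark AGGAAG or its complement CTTCCT, a core bound by PU.1 and other ETS factors, and in the last 2 they mark the E-box core CANNTG, which reads the same on both strands.
Mpo chr11:87793534-87793783, plus strand: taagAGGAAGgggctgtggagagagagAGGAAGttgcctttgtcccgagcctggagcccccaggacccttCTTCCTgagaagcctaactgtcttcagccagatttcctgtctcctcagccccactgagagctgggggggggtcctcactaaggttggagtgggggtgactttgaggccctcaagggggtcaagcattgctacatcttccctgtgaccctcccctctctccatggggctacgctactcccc
Elane chr10:79886062-79886311, plus strand: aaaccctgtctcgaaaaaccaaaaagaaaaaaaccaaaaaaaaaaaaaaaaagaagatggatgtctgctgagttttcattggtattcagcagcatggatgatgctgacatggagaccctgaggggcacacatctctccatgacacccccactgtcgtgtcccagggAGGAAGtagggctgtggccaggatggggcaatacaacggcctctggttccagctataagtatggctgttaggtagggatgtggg
Prtn3 chr10:79879417-79879666, plus strand: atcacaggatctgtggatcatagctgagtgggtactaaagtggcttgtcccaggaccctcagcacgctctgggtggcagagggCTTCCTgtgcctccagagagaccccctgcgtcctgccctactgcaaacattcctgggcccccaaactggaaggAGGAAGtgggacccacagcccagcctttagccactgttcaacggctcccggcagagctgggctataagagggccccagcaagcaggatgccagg
Ctsg chr14:56102575-56102824, minus strand: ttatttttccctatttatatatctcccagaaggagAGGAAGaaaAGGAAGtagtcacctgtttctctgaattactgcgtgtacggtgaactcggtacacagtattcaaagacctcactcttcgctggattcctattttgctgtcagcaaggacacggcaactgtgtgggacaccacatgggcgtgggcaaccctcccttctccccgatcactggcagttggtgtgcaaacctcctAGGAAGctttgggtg
Ms4a3 chr19:11640852-11641101, minus strand: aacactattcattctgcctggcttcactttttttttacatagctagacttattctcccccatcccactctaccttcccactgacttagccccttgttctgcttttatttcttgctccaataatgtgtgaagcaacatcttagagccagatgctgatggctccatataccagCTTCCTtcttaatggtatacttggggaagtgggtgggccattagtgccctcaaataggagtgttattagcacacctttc
S100a8 chr3:90668821-90669070, plus strand: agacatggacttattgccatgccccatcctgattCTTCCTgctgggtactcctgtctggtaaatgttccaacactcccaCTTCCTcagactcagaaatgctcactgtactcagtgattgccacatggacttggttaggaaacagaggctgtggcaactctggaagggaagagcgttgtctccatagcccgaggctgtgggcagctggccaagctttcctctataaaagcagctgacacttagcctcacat
Dntt chr19:41029025-41029274, plus strand: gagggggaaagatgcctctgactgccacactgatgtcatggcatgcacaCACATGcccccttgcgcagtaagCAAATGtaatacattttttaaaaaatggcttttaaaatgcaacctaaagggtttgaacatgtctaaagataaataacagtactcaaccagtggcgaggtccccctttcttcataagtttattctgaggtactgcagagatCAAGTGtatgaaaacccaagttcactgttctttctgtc
Flt3 chr5:147400490-147400739, minus strand: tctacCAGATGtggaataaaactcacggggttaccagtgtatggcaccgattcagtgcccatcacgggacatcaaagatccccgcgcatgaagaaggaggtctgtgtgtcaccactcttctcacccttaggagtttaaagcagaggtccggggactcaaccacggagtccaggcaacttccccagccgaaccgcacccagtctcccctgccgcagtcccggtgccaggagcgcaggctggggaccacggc

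AGGAAG occurred 3 times in the windows of Mpo and Ctsg, 2 times in those of Prtn3 and S100a8, 1 time in those of Elane and Ms4a3, and in neither lymphoid window. On either strand it was present in 84.6% of 13 primary granule promoters and 66.7% of 15 secondary granule promoters, against 35.7% of 28 early lymphoid promoters and 29.2% of all 27025 promoters. CANNTG occurred 3 times upstream of Dntt and 1 time upstream of Flt3. It also occurred 4 times upstream of Ctsg, 3 times upstream of S100a8 and 1 time upstream of Ms4a3, where it is not capitalised. Upstream of Mpo, Elane and Prtn3 it occurred 0 times. It was present in 69.2% of the primary granule, 53.3% of the secondary granule and 75% of the early lymphoid promoters, against 66% of all promoters. CAGCTG is the form of CANNTG that E2A prefers, and its matches are also matches of CANNTG. It was present in 15.4% of the primary granule, 13.3% of the secondary granule and 7.14% of the early lymphoid promoters, against 12.8% of all. It occurred 2 times upstream of S100a8 and 0 times upstream of Dntt and Flt3. The looser C/EBP core TTNCNNAA was found in 38.5% of primary granule, 73.3% of secondary granule and 35.7% of early lymphoid promoters, against 36.9% of all. AGGAAG and TTNCNNAA differ in letters but their matches may share bases in a window. These matches describe letters and do not show binding.

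Myeloid transcription factors moved in both directions. Of 24 tested (26 listed), 7 were higher, 5 lower and 12 not called, with a median of -0.04. Over all genes tested, the values to set beside this and the lists below are 16% higher, 13% lower and a median of -0.04. Cebpa, the factor required to form GMP, measured 7.06, 7.04 and 6.58 in the GMP arrays, against 5.46 and 5.72 in the LMPP arrays, a difference of 1.30 ± 0.23 (adjusted p = 0.000255). The related Cebpd measured 7.20, 7.26 and 7.03 in the GMP arrays, against 5.02 and 5.12 in the LMPP arrays, a difference of 2.09 ± 0.25 (adjusted p = 6.17e-06). In both genes every GMP array lay above both LMPP arrays. Gfi1, a repressor needed for neutrophil formation, was higher by 1.87 ± 0.45 (adjusted p = 0.00433) and Tfec, a factor of the MiT family expressed in macrophages, by 2.16 ± 0.19 (adjusted p = 8.59e-08). The inflammatory factor Cebpb was not called (0.03 ± 0.34, adjusted p = 0.961).

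Spi1, which encodes PU.1, was lower, with 6.42, 6.67 and 6.48 in the GMP arrays, against 7.79 and 7.73 in the LMPP arrays, a difference of -1.24 ± 0.28 (adjusted p = 0.00257). Its groups did not overlap, and the call ended with housekeeping centring (-1.10). Irf8, a factor of monocyte and dendritic cells, was just inside the threshold at 0.92 ± 0.34 (adjusted p = 0.0498). It lost the call when any 1 of the 5 arrays was left out, with 0.62 without LMPP array 1, 1.22 without LMPP array 2 and 0.90 to 0.94 without 1 GMP array. Klf4, a monocyte factor, was not called on its main probe set (-0.17 ± 0.46), but its other probe set was lower, at -2.21 ± 0.44 (adjusted p = 0.00145 over probe sets), and the mean over both differed by -1.19. Of the 5 lower members Egr1, Jun and Junb are rapidly induced genes. With housekeeping centring 3 members were lower, and with the actin covariate 4 members were higher, and neither Cebpa (0.64) nor Cebpd (1.96) was called.

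Members of the list of primary granule proteins, which are packed first during neutrophil formation, were mostly higher in GMP. The list also counts genes that do not encode granule enzymes, such as the membrane protein gene Ms4a3 and Igfbp4. Of 13 tested (15 listed), 8 were higher, 1 lower and 4 not called, with a median of 1.65. Mpo, the peroxidase that makes hypochlorous acid, measured 13.88, 13.89 and 13.90 in the GMP arrays, against 11.15 and 11.53 in the LMPP arrays, a difference of 2.55 ± 0.37 (adjusted p = 4.24e-05). Elane, which encodes neutrophil elastase, measured 8.31, 7.89 and 8.26 in the GMP arrays, against 4.61 and 4.99 in the LMPP arrays, a difference of 3.35 ± 0.31 (adjusted p = 1.65e-07). Mpo was far above background in LMPP too, whereas Elane was close to it there. The serine protease Prtn3 measured 12.71, 12.74 and 12.75 in the GMP arrays, against 10.15 and 11.06 in the LMPP arrays, a difference of 2.13 ± 0.34 (adjusted p = 0.000104). Ctsg, the protease cathepsin G, measured 12.55, 12.57 and 12.63 in the GMP arrays, against 8.89 and 10.13 in the LMPP arrays, a difference of 3.07 ± 0.43 (adjusted p = 3.16e-05). For both, LMPP array 2 lay above LMPP array 1 and below every GMP array. Ctsc, the peptidase that activates these proteases, was higher by 1.65 ± 0.35 (adjusted p = 0.00161), although another of its probe sets differed by -0.47 and the mean over its probe sets (0.83) was not called. Of the closely similar lysozyme genes, whose probes may cross-hybridise, Lyz1 was higher by 1.20 ± 0.25 (adjusted p = 0.0013), while Lyz2 (-0.23 ± 0.29) and the proteoglycan core Srgn (0.16 ± 0.26) were not called. The lectin Fcnb was higher by 2.30 ± 0.25, and the lower member was Igfbp4 (-1.24 ± 0.27), an insulin-like growth factor binding protein. Once the actin ratio was added, 8 members were higher and 0 lower, and neither Fcnb (1.41) nor Igfbp4 (-0.91) was called.

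Members of the list of secondary and tertiary granule proteins, which mark later neutrophil stages, were also mostly higher. The list also counts genes whose products are not granule cargo, such as S100a8, S100a9 and Padi4. Of 16 tested (17 listed), 11 were higher, 1 lower and 4 not called, with a median of 1.99. The mean log2 level over the list was 6.56 to 6.70 on the GMP arrays, against 4.22 and 4.32 on the LMPP arrays. Chil3, a chitinase-like protein, measured 8.67, 8.20 and 8.30 in the GMP arrays, against 2.22 and 2.53 in the LMPP arrays, a difference of 6.02 ± 0.42 (adjusted p = 5.03e-09). S100a9, the partner of S100a8, measured 8.36, 7.82 and 7.99 in the GMP arrays, against 2.87 and 3.58 in the LMPP arrays, a difference of 4.83 ± 0.41 (adjusted p = 6.61e-08). Haptoglobin (Hp) measured 10.65, 10.42 and 10.31 in the GMP arrays, against 3.95 and 4.68 in the LMPP arrays, a difference of 6.14 ± 0.28 (adjusted p = 1.55e-11). The LMPP values of these genes were below or close to the array median. Classical granule cargo was also higher: Ngp by 3.57 ± 0.47, the siderophore binder Lcn2 by 2.38 ± 0.32, the cathelicidin Camp by 2.08 ± 0.40 and lactoferrin (Ltf) by 2.07 ± 0.29. The late gelatinases Mmp8 (0.51 ± 0.22, adjusted p = 0.091) and Mmp9 (0.14 ± 0.26, adjusted p = 0.745) were not called, and Mmp9 lay below the array median in both groups. Padi4, a histone deiminase of neutrophils, was lower (-2.54 ± 0.26). How far mature neutrophils in the GMP sort contribute was not tested. With the actin covariate 8 members were higher and 0 lower, and Ngp (1.17), Camp (0.21) and Padi4 (-1.32) were not called.

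Subunits of the phagocyte NADPH oxidase, which makes superoxide, were called in both directions. Of 5 tested (6 listed), 1 was higher and 2 lower. Cybb, the catalytic subunit, measured 8.99, 8.72 and 8.13 in the GMP arrays, against 2.85 and 3.47 in the LMPP arrays, a difference of 5.46 ± 0.42 (adjusted p = 1.75e-08). The GMP arrays lay far above background and the LMPP arrays below the array median. The cytosolic subunits Ncf1 (0.54 ± 0.43) and Ncf4 (0.49 ± 0.27) were not called. The GTPase Rac2 was lower at -1.95 ± 0.21 (adjusted p = 1.73e-06), although another of its probe sets differed by -0.11 and was not called. Cyba, the partner chain of Cybb, was lower by a narrow margin (-0.94 ± 0.33, adjusted p = 0.0403) that ended when any 1 of the 5 arrays was left out (-0.66 without LMPP array 1, -1.22 without LMPP array 2, and -0.99, -0.96 and -0.88 without GMP arrays 1, 2 and 3). In the actin covariate fit Rac2 (-1.57) was not called and Cyba reversed (0.48).

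**Figure D2:**
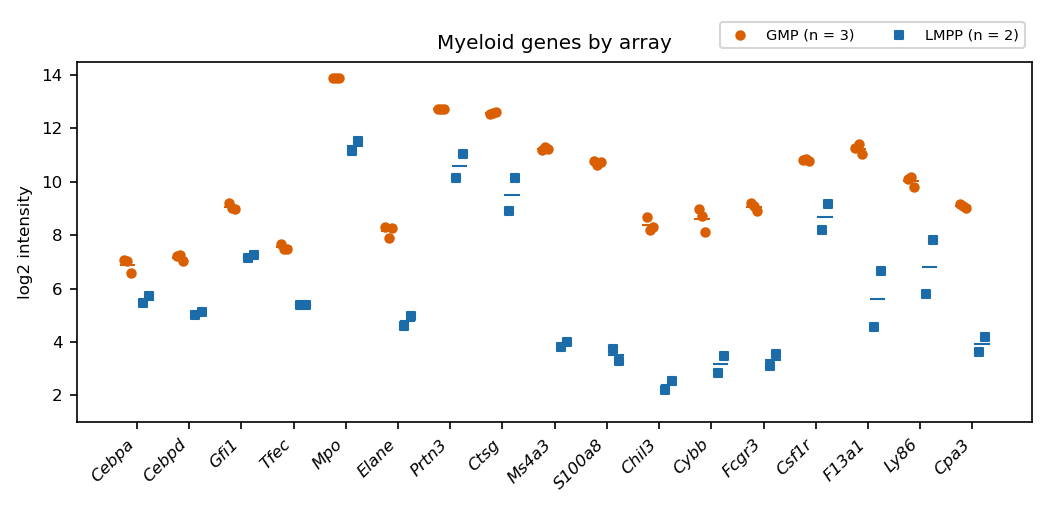
Log2 intensity of 17 myeloid genes on each of 3 GMP arrays (circles) and 2 LMPP arrays (squares), with lines at the group means. All GMP points lie above the LMPP points of the same gene, and Mpo, Prtn3, Ctsg and Csf1r are well above background in LMPP while S100a8, Chil3 and Cybb are close to it.

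Growth factor and Fc receptors of myeloid cells were mixed, with 8 higher, 3 lower and 7 not called of 18 tested (22 listed) and a median of 0.67. Csf1r, the receptor for the macrophage growth factor M-CSF, measured 10.83, 10.86 and 10.77 in the GMP arrays, against 8.18 and 9.17 in the LMPP arrays, a difference of 2.14 ± 0.39 (adjusted p = 0.000421). Its LMPP arrays already lay well above the array median, and another of its probe sets differed by -0.16 and was not called. The lectin receptor Clec5a was higher by 4.08 ± 0.18 and its signalling adaptor Tyrobp by 2.33 ± 0.31, while the Fc receptor chain Fcer1g was higher by 1.48 ± 0.26. The GM-CSF receptor chain Csf2ra was not called on its main probe set (0.16 ± 0.30), but its other probe set was higher by 1.74 ± 0.36 (adjusted p = 0.00171 over probe sets), and the mean over both differed by 0.95. Il1r1, a receptor for interleukin 1, went the other way with 5.63, 5.62 and 5.60 in the GMP arrays, against 9.89 and 10.06 in the LMPP arrays, a difference of -4.36 ± 0.22 (adjusted p = 5.12e-11).

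Csf3r measured 7.31, 6.70 and 6.97 in the GMP arrays, against 8.15 and 7.99 in the LMPP arrays, a difference of -1.08 ± 0.36 (adjusted p = 0.0311), and Il6ra differed by -1.24 ± 0.42 (adjusted p = 0.0328). These lower calls were weak: Csf3r was -1.0 and Il6ra -1.36 without LMPP array 1, and -1.16 and -1.11 without LMPP array 2, none of them called. Neither was called without GMP array 2 (-0.93 and -1.32) or GMP array 3 (-1.07 and -1.16), nor Il6ra without GMP array 1 (-1.24), and 1 member was lower with housekeeping centring. The count of higher members was 6 to 8 without any 1 array, and with the actin covariate 4 members were higher, and Csf1r (1.30) and Fcer1g (1.44) were not called.

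Monocyte and macrophage genes were higher for 9 of 19 tested (22 listed) and lower for 3, with a median of 0.72. The lower members were Nr4a1 (-4.36 ± 0.51, adjusted p = 3.75e-06), Tlr7 (-2.03 ± 0.33, adjusted p = 0.000155) and the main probe set of Ccr2. F13a1, the coagulation factor XIII subunit made by monocytes, measured 11.29, 11.42 and 11.03 in the GMP arrays, against 4.57 and 6.67 in the LMPP arrays, a difference of 5.62 ± 0.45 (adjusted p = 2.94e-08). Ly86, the MD-1 partner of an innate receptor, measured 10.10, 10.19 and 9.80 in the GMP arrays, against 5.78 and 7.83 in the LMPP arrays, a difference of 3.22 ± 0.48 (adjusted p = 5.23e-05). In both, LMPP array 2 was more than 2 log2 units above LMPP array 1, and the GMP arrays lay above both. Ms4a6c was higher by 3.26 ± 0.48, with another probe set at -0.20 that was not called, and the galectin Lgals3 by 2.64 ± 0.25. The lysosomal protein Cd68 (-0.57 ± 0.44) and the protease Ctss (-0.26 ± 0.33) were not called. The chemokine receptor Ccr2, which marks classical monocytes, cannot be given a direction: its main probe set was lower (-1.18 ± 0.37), but 3 others were higher by 0.92, 1.52 and 3.50, and the mean over its probe sets differed by 1.19. Ccr2 on its main probe set was not called without GMP array 1 (-0.96), GMP array 2 (-1.16), LMPP array 1 (-1.08) or LMPP array 2 (-1.28).

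Receptors for microbial patterns were higher for 8 of 17 tested (18 listed) and lower for 1, with a median of 0.97. The higher members Tlr2, Tlr4, Cd14 and Ly86 and the lower member Tlr7 are also counted among the monocyte and macrophage genes above. Clec7a, the β-glucan receptor Dectin-1, measured 8.79, 8.65 and 8.47 in the GMP arrays, against 3.94 and 4.24 in the LMPP arrays, a difference of 4.55 ± 0.33 (adjusted p = 8.47e-09). The endotoxin receptor Tlr4 was higher by 2.84 ± 0.43 (adjusted p = 6.44e-05; another of its probe sets, at 0.47, was not called), its co-receptor Cd14 by 1.75 ± 0.23 (adjusted p = 1.33e-05) and the signalling inhibitor Irak3 by 2.17 ± 0.40 (adjusted p = 0.00041). The adaptor Myd88 (-0.03 ± 0.30) and the third endotoxin receptor component Ly96 (-0.08 ± 0.28) were not called. Tlr7, a sensor of single-stranded RNA, was the lower member (-2.03 ± 0.33, adjusted p = 0.000155) and reversed with the actin covariate (0.17).

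Markers of basophils, mast cells and eosinophils were higher in GMP. Of 9 tested (14 listed) 5 were higher, 0 lower and 4 not called, and the mean log2 level over the list was 5.07 to 5.18 on the GMP arrays, against 3.88 and 4.01 on the LMPP arrays. Cpa3, the mast cell carboxypeptidase, measured 9.16, 9.11 and 9.0 in the GMP arrays, against 3.63 and 4.19 in the LMPP arrays, a difference of 5.18 ± 0.27 (adjusted p = 8.29e-11). Ms4a2, the β chain of the high-affinity IgE receptor, measured 7.54, 7.51 and 7.38 in the GMP arrays, against 3.10 and 3.14 in the LMPP arrays, a difference of 4.36 ± 0.36 (adjusted p = 4.06e-08). The basophil protease Mcpt8 was higher by 1.91 ± 0.42 and the eosinophil granule protein Prg2 by 2.04 ± 0.64, while Tpsb2 and Cma1 of mature mast cells were not called (-0.04 ± 0.27 and 0.01 ± 0.28). Mcpt8 was not called without LMPP array 1 (1.38), and Prg2 was called only with all arrays or without GMP array 3, having 1.98 without GMP array 1, 1.77 without GMP array 2, 1.72 without LMPP array 1 and 2.37 without LMPP array 2. The count fell to 2 without LMPP array 1, to 3 without LMPP array 2 or GMP array 2, and to 2 with the actin covariate. In these bulk samples a smaller share of cells of a type and less RNA per cell cannot be told apart, and how far such cells within the GMP sort contribute was not tested.

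Erythroid and megakaryocyte markers had 1 higher and 2 lower of 16 tested (21 listed) and a mean log2 level of 5.18 to 5.27 on the GMP arrays, against 5.37 and 5.46 on the LMPP arrays. Car2, a carbonic anhydrase that is also high in stem cells, measured 7.04, 6.89 and 7.03 in the GMP arrays, against 11.70 and 11.76 in the LMPP arrays, a difference of -4.74 ± 0.48 (adjusted p = 5.59e-07). The erythroid factors Gata1 (0.69 ± 0.38) and Klf1 (0.63 ± 0.57) were not called. The lower count fell to 0 with the actin covariate, where Car2 was -2.17, and the higher count was then 3. The higher member, the carbonic anhydrase gene Car1 (2.40 ± 0.61), was not called without LMPP array 1 (2.13).

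Early lymphoid genes were mostly lower in GMP. Of 33 tested (35 listed), 19 were lower, 2 higher and 12 not called, with a median of -1.47, and the mean log2 level over the list was 5.88 to 6.03 on the GMP arrays, against 7.51 and 7.75 on the LMPP arrays. Beside Dntt and Flt3, the TNF receptor family member Cd27 measured 5.57, 5.62 and 5.59 in the GMP arrays, against 9.77 and 9.75 in the LMPP arrays, a difference of -4.17 ± 0.29 (adjusted p = 5.37e-09). Ltb, the membrane anchor of lymphotoxin, measured 3.36, 3.64 and 3.49 in the GMP arrays, against 7.72 and 6.80 in the LMPP arrays, a difference of -3.77 ± 0.35 (adjusted p = 1.75e-07). Ltb lay near background on all GMP arrays, whereas Cd27 was above it there, and the groups did not overlap for either gene. Gimap6, a GTPase of lymphocytes, measured 3.57, 3.47 and 3.19 in the GMP arrays, against 8.10 and 7.78 in the LMPP arrays, a difference of -4.53 ± 0.39 (adjusted p = 7.93e-08). Arpp21 differed by -3.36 ± 0.28 and Rhoh, a GTPase needed for T cell receptor signalling, by -2.90 ± 0.39. Among transcription factors of the list Mef2c (-1.92 ± 0.31), Sox4 (-1.96 ± 0.36), Bcl11a (-1.89 ± 0.31) and Satb1 (-1.89 ± 0.25) were lower, although Bcl11a and Satb1 each had another probe set, at 0.02 and 0.14, that was not called. Rhoh (-2.17), Mef2c (-0.97), Sox4 (-1.66) and Satb1 (-1.28) were not called with the actin covariate.

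Il7r, the interleukin 7 receptor, measured 3.83, 4.0 and 3.33 in the GMP arrays, against 5.90 and 4.79 in the LMPP arrays, a difference of -1.62 ± 0.40 (adjusted p = 0.00434). Ccr9, which guides progenitors to the thymus, measured 3.13, 3.15 and 2.98 in the GMP arrays, against 6.30 and 4.15 in the LMPP arrays, a difference of -2.14 ± 0.41 (adjusted p = 0.000646). In both the LMPP arrays differed by more than 1 log2 unit, and Il7r was not called without LMPP array 1 (-1.07) or with the mean over its probe sets (-0.98). Rag1 (-0.58 ± 0.39, adjusted p = 0.303) and Rag2 (-1.0 ± 0.39, adjusted p = 0.0587), the recombinase genes, were not called. Rag1 lay near background, at means of 2.655 in GMP and 3.235 in LMPP, and Rag2 above it, at 4.51 in GMP and 5.51 in LMPP. The Ikaros gene Ikzf1 was not called either (-0.39 ± 0.23). The higher members were Dtx4, a Notch pathway ubiquitin ligase (1.68 ± 0.35), and the transcription factor gene Runx3 (1.31 ± 0.35), which was not called without LMPP array 2 (0.92) and reversed with the actin covariate (-1.07). Once the actin ratio was added, 9 members were lower and 1 higher, and Gimap6 (-1.89), Il7r (-2.21) and Ccr9 (-1.42) were not called.

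**Figure D3:**
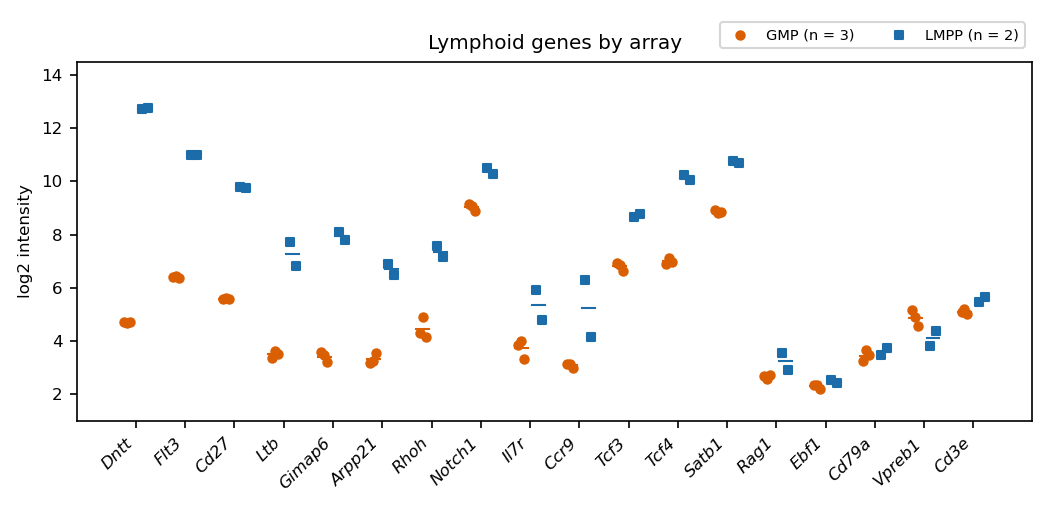
Log2 intensity of 18 lymphoid genes on each of 3 GMP arrays (circles) and 2 LMPP arrays (squares), with lines at the group means. GMP points lie below LMPP points from Dntt to Satb1, whereas Rag1, Ebf1, Cd79a, Vpreb1 and Cd3e, none of which was called, lie within about 1 unit of each other in both groups.

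E proteins, their Id inhibitors and their partners were called for all 9 members tested (10 listed), 7 lower and 2 higher, with a median of -1.44. Tcf4, which encodes E2-2, measured 6.89, 7.13 and 6.97 in the GMP arrays, against 10.24 and 10.04 in the LMPP arrays, a difference of -3.14 ± 0.26 (adjusted p = 3.67e-08), although another of its probe sets differed by -0.27 and was not called. Tcf3, which encodes E2A, measured 6.92, 6.86 and 6.62 in the GMP arrays, against 8.66 and 8.78 in the LMPP arrays, a difference of -1.92 ± 0.31 (adjusted p = 0.000143). For both, the GMP arrays lay below the LMPP arrays. The bridging proteins Ldb1 (-2.61 ± 0.26) and Lmo2 (-2.44 ± 0.37) and the bHLH factor Lyl1 (-1.44 ± 0.33) were lower. The higher members were Id2, an inhibitor of E proteins (1.83 ± 0.42, adjusted p = 0.0025), and Tcf12, the third E protein gene (1.0 ± 0.33, adjusted p = 0.0289). Another probe set of Id2 differed by -0.38 and was not called, and the mean over its probe sets (0.35) was not called. Id2 was not called without LMPP array 2 (1.39), and Tcf12 was not called without GMP array 1 (0.93), GMP array 2 (0.97), LMPP array 1 (0.91) or LMPP array 2 (1.08). With the actin covariate 3 members were lower, Tcf3 (-0.72) and Lyl1 (-0.97) were not called and Lmo2 reversed (0.33).

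Notch pathway genes were lower for 4 of 18 tested (19 listed) and higher for 1, with a median of -0.20. Notch1, the receptor that commits cells to the T lineage, measured 9.14, 9.08 and 8.90 in the GMP arrays, against 10.49 and 10.28 in the LMPP arrays, a difference of -1.35 ± 0.28 (adjusted p = 0.00126). Mfng, which adds sugars to Notch receptors, measured 6.10, 5.76 and 5.64 in the GMP arrays, against 8.87 and 8.65 in the LMPP arrays, a difference of -2.93 ± 0.27 (adjusted p = 1.96e-07). The groups did not overlap for either gene. The target gene Hes1 was not called (-1.35 ± 0.79, adjusted p = 0.225). In the actin covariate fit 2 members were lower.

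Cytokine receptors and JAK-STAT genes of lymphocytes were lower for 15 of 26 tested (28 listed) and higher for 1, with a median of -0.86. Socs3 measured 3.21, 3.68 and 2.86 in the GMP arrays, against 9.31 and 9.55 in the LMPP arrays, a difference of -6.18 ± 0.50 (adjusted p = 3.74e-08). The kinase gene Jak3, which signals for the common γ chain receptors, measured 5.04, 5.15 and 5.11 in the GMP arrays, against 7.67 and 7.47 in the LMPP arrays, a difference of -2.46 ± 0.28 (adjusted p = 3.06e-06). In both, each GMP array lay below both LMPP arrays. Jak1 (-2.16 ± 0.36), the receptor chain Il27ra (-1.95 ± 0.30) and Stat4 (-1.84 ± 0.40) were lower, while Jak2 (0.49 ± 0.34) and Stat5a (-0.11 ± 0.32) were not called. The interferon γ receptor Ifngr1 was the higher member (1.89 ± 0.25, adjusted p = 1.65e-05). Without LMPP array 1 the lower count was 8, and with the actin covariate it was 1, with Jak3 at -1.67, Jak1 at -0.83, Il27ra at -2.11 and Stat4 reversed at 0.58.

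Most tested members of the B lineage, T lineage and NK lists were not called. The same held over all genes tested, of which 28.9% were called. B lineage genes were lower for 4 of 21 tested (24 listed) and higher for 0, with a median of -0.15. Ebf1, which starts the B lineage, measured 2.33, 2.33 and 2.21 in the GMP arrays, against 2.53 and 2.41 in the LMPP arrays, a difference of -0.18 ± 0.34 (adjusted p = 0.745). The B cell receptor chain Cd79a (-0.15 ± 0.24) and the surrogate light chain gene Vpreb1 (0.78 ± 0.39) were not called either. Ebf1 lay at background on all 5 arrays. The member that fell furthest was Cd72, a B cell co-receptor, with 5.42, 5.67 and 5.46 in the GMP arrays, against 8.15 and 7.44 in the LMPP arrays, a difference of -2.28 ± 0.34 (adjusted p = 5.99e-05). T lineage genes were lower for 3 of 19 tested (22 listed) and higher for 0. Lat, an adaptor of the T cell receptor that is also found in platelets and mast cells, was lower (-2.25 ± 0.28, adjusted p = 6.98e-06), as was the T cell factor gene Gata3 (-1.32 ± 0.25, adjusted p = 0.000535), while Cd3e was not called (-0.45 ± 0.25). NK and innate lymphoid genes were higher for 3 and lower for 3 of 16 tested (17 listed). Among the higher ones was Nkg7, a granule membrane protein (1.25 ± 0.30, adjusted p = 0.00419). Mean log2 levels over the lists were 5.0 to 5.05 in GMP, against 5.30 and 5.38 in LMPP for B lineage genes, and 3.77 to 3.81 in GMP, against 4.08 and 4.15 in LMPP for T lineage genes. Without LMPP array 2 the B lineage count was 2, without LMPP array 1 the lower NK count was 0, without LMPP array 2 it was 1, and with the actin covariate 1 B lineage member was lower, 1 NK member was higher and Cd72 was not called (-2.04).

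Antigen presentation genes were lower in GMP. Dendritic cell and MHC class II genes were lower for 10 of 19 tested (23 listed) and higher for 1 (Id2), with a median of -0.91. The higher count was 0 with the mean over each gene's probe sets. H2-Aa, an MHC class II chain, measured 6.72, 6.71 and 6.25 in the GMP arrays, against 9.67 and 8.59 in the LMPP arrays, a difference of -2.57 ± 0.32 (adjusted p = 8.53e-06). The invariant chain Cd74 measured 4.33, 4.41 and 4.22 in the GMP arrays, against 6.86 and 6.09 in the LMPP arrays, a difference of -2.15 ± 0.30 (adjusted p = 2.47e-05). The class II genes were lower on every GMP array than on either LMPP array, and the plasmacytoid dendritic marker Siglech was not called (-0.07 ± 0.30). MHC class I genes were lower for 9 of 11 tested (13 listed) and higher for 0, with a median of -1.44. H2-K1, a class I heavy chain, measured 10.33, 10.21 and 10.08 in the GMP arrays, against 12.85 and 12.86 in the LMPP arrays, a difference of -2.64 ± 0.22 (adjusted p = 6.61e-08). The immunoproteasome subunit Psmb9 (-2.07 ± 0.32) and the peptide transporter chain Tap2 (-1.69 ± 0.27) were lower. Once the actin ratio was added, 2 class II and dendritic members and 1 class I member were lower, and Cd74 (-1.59), Psmb9 (-0.62) and Tap2 (-0.53) were not called.

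Interferon-stimulated genes were lower for 12 of 26 tested (30 listed) and higher for 0, with a median of -0.73. Rtp4, an interferon-induced chaperone, measured 5.71, 5.53 and 5.34 in the GMP arrays, against 7.85 and 8.16 in the LMPP arrays, a difference of -2.48 ± 0.29 (adjusted p = 3.72e-06). Oasl2 (-2.31 ± 0.36) and the interferon pathway factor Irf9 (-1.86 ± 0.29) were lower. Rtp4 lay lower on every GMP array than on either LMPP array. With the actin covariate 1 member was lower, and Rtp4 (-0.98), Oasl2 (-2.45) and Irf9 (-1.26) were not called.

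Stem cell and multipotent genes were lower for 16 of 31 tested (34 listed) and higher for 1, with a median of -0.76. Hlf, a transcription factor of stem cells, measured 5.69, 5.68 and 5.43 in the GMP arrays, against 9.49 and 9.22 in the LMPP arrays, a difference of -3.76 ± 0.29 (adjusted p = 2.2e-08). Meis1, a Hox cofactor, measured 6.02, 6.13 and 5.88 in the GMP arrays, against 9.88 and 9.79 in the LMPP arrays, a difference of -3.83 ± 0.47 (adjusted p = 6.39e-06). Procr, a surface marker of stem cells, measured 4.15, 3.65 and 3.87 in the GMP arrays, against 6.90 and 7.06 in the LMPP arrays, a difference of -3.09 ± 0.25 (adjusted p = 3.47e-08). All 3 GMP arrays lay below both LMPP arrays for these genes. Ctla2a (-4.38 ± 0.36) and the stem cell factor gene Mecom (-2.39 ± 0.43) were lower, while Gata2 (-0.41 ± 0.35) and Slamf1 (0.01 ± 0.24) were not called. Fli1, higher on its main probe set, cannot be given a direction. Its other probe set was lower (-1.51 ± 0.32, adjusted p = 0.00191 over probe sets), and the mean over both differed by 0.06. Hox and Meis genes were lower for 5 of 14 tested (24 listed) and higher for 0, led by Meis1 and Hoxa7 (-1.20 ± 0.24). Of 11 platelet and endothelial-like stem genes tested (12 listed) 4 were lower and 0 higher, Procr among them. In the actin covariate fit 5 stem cell members, 1 Hox and Meis member and 2 platelet and endothelial-like members were lower, and Meis1 (-0.54) and Hoxa7 (-1.04) were not called. The Hox and Meis count was 2 without GMP array 1, GMP array 2 or LMPP array 1 and with housekeeping centring, and 3 without LMPP array 2, and the higher stem cell member, Fli1 (1.64 ± 0.46), was not called without LMPP array 1 (1.40) and had another probe set at -1.51.

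Genes of DNA replication were higher for 10 of 28 tested (30 listed) and lower for 1, with a median of 0.26. Ccne2, a cyclin of S phase entry, measured 8.52, 8.31 and 8.29 in the GMP arrays, against 5.09 and 4.64 in the LMPP arrays, a difference of 3.51 ± 0.52 (adjusted p = 5.76e-05). Cdc6, which loads the replicative helicase, measured 9.62, 9.50 and 9.44 in the GMP arrays, against 7.51 and 7.32 in the LMPP arrays, a difference of 2.10 ± 0.57 (adjusted p = 0.00924). Both were higher on every GMP array. The lower member was Pcna, the polymerase clamp (-1.40 ± 0.42, adjusted p = 0.0161). Mitotic genes were lower for 5 of 29 tested (30 listed) and higher for 0, with a median of -0.47. Ube2c, which marks mitotic proteins for destruction, measured 6.53, 6.43 and 6.14 in the GMP arrays, against 9.13 and 9.13 in the LMPP arrays, a difference of -2.77 ± 0.55 (adjusted p = 0.000811), while Mki67 (-0.47 ± 0.40) and Top2a (-0.07 ± 0.37) were not called, and another probe set of Top2a was higher by 1.69. Rb1, which holds back S phase, was the 1 higher of 13 CDK inhibitors, pocket proteins and D-type cyclins tested (15 listed), at 2.62 ± 0.46, beside 4 lower.

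These cell cycle counts mostly fell when 1 array was left out, as did the counts over all genes. The differences of Cdc6, Pcna and Ube2c themselves changed little without either LMPP array (Ube2c -2.77 without LMPP array 1 and -2.77 without LMPP array 2). Higher replication genes numbered 6 without GMP array 1 or GMP array 2, 3 without LMPP array 1 and 2 without LMPP array 2. Lower mitotic genes numbered 2 without GMP array 3, LMPP array 1 or LMPP array 2, and 3 without GMP array 1 or GMP array 2. Cdc6 was not called without LMPP array 1 (2.20) or LMPP array 2 (2.01), nor Pcna without LMPP array 1 (-1.43) or LMPP array 2 (-1.37), and lower CDK inhibitors and cyclins numbered 2 without GMP array 3, LMPP array 1 or LMPP array 2. Once the actin ratio was added, 6 replication genes were higher, 0 mitotic genes were lower and 3 higher, 0 CDK inhibitors and cyclins were lower and 3 higher, Ube2c was -0.88 and not called, and Pcna reversed to 1.98.

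The folding and secretion machinery of the endoplasmic reticulum was higher in GMP, with 18 of 33 tested (34 listed) higher and 0 lower and a median of 1.03. Xbp1, the transcription factor that expands the secretory apparatus, measured 11.18, 11.06 and 10.97 in the GMP arrays, against 8.84 and 9.26 in the LMPP arrays, a difference of 2.02 ± 0.39 (adjusted p = 0.000676). Canx, the glycoprotein chaperone calnexin, measured 12.11, 12.18 and 12.19 in the GMP arrays, against 10.34 and 10.46 in the LMPP arrays, a difference of 1.76 ± 0.34 (adjusted p = 0.00059). Every GMP array lay above both LMPP arrays for both genes. Edem1, which sends misfolded proteins to degradation, was higher by 2.22 ± 0.31, the chaperone Dnajc3 by 2.14 ± 0.44 and the translocon channel Sec61a1 by 1.82 ± 0.21. With the actin covariate 18 members were higher and 0 lower, and Sec61a1 was not called (1.31).

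Lysosomal enzymes were higher for 8 of 22 tested (26 listed) and lower for 1, with a median of 0.67. Ctsh, a cysteine protease, measured 8.38, 8.18 and 7.95 in the GMP arrays, against 5.05 and 5.10 in the LMPP arrays, a difference of 3.10 ± 0.29 (adjusted p = 2.13e-07). Arsb, an arylsulfatase, was higher by 1.76 ± 0.33 and the membrane protein Lamp2 by 1.29 ± 0.25. The lower member was Psap, the saposin precursor (-1.37 ± 0.28), which reversed with the actin covariate (0.13). The higher count was 5 without LMPP array 1 or LMPP array 2. Ribosome biogenesis genes were higher for 8 and lower for 2 of 25 tested (25 listed), with fibrillarin (Fbl), a nucleolar RNA methyltransferase, higher by 1.23 ± 0.26 (adjusted p = 0.00128). That higher count was 4 without GMP array 1 or GMP array 2 and 3 without LMPP array 1 or LMPP array 2, and the lower count was 1 without GMP array 1, GMP array 2 or LMPP array 2 and 0 without LMPP array 1.

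Sugar metabolism genes were higher for 6 and lower for 6 of 21 tested (24 listed). Pgd, which makes NADPH in the pentose phosphate pathway, measured 12.59, 12.60 and 12.52 in the GMP arrays, against 9.73 and 9.76 in the LMPP arrays, a difference of 2.83 ± 0.21 (adjusted p = 1.52e-08). Hexokinase genes differed in direction, with Hk3 higher (2.82 ± 0.27, adjusted p = 2.75e-07) and Hk1 lower (-1.30 ± 0.45, adjusted p = 0.0375). The liver-type phosphofructokinase gene Pfkl measured 7.60, 7.60 and 7.08 in the GMP arrays, against 9.70 and 9.63 in the LMPP arrays, a difference of -2.24 ± 0.27 (adjusted p = 4.49e-06). Hk1 was not called when any 1 of the 5 arrays was left out, with -1.30 without GMP array 1, -1.26 without GMP array 2, -1.34 without GMP array 3, -1.31 without LMPP array 1 and -1.29 without LMPP array 2. The higher count was 3 without LMPP array 1, and with the actin covariate the lower count was 1 and Hk1 was -0.43.

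Chemokine receptors and adhesion genes were higher for 6 and lower for 6 of 25 tested (29 listed). The β3 integrin Itgb3 was higher by 2.26 ± 0.46, with another probe set at 0.01, and the β7 integrin Itgb7, which guides lymphocytes to the gut, was lower (-2.68 ± 0.29). In the actin covariate fit 1 was higher and 2 lower, and Itgb3 was not called (2.72). In the BCL2 family 1 of 12 tested (15 listed) was lower and 0 higher, the pro-apoptotic Bmf (-1.96 ± 0.28, adjusted p = 3.66e-05; another of its probe sets, at -0.14, was not called). The survival gene Bcl2 was not called on its main probe set (-0.34 ± 0.25) and cannot be given a direction, since another of its probe sets was lower (-1.92 ± 0.44) and another higher (1.19 ± 0.30), both with an adjusted p under 0.05 over probe sets. Housekeeping genes had 1 higher and 3 lower of 19 tested (20 listed), with a median of -0.20. No housekeeping member was called without LMPP array 1 or LMPP array 2, 1 was lower without GMP array 3, and with the actin covariate 5 were higher and 0 lower.

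**Figure D4:**
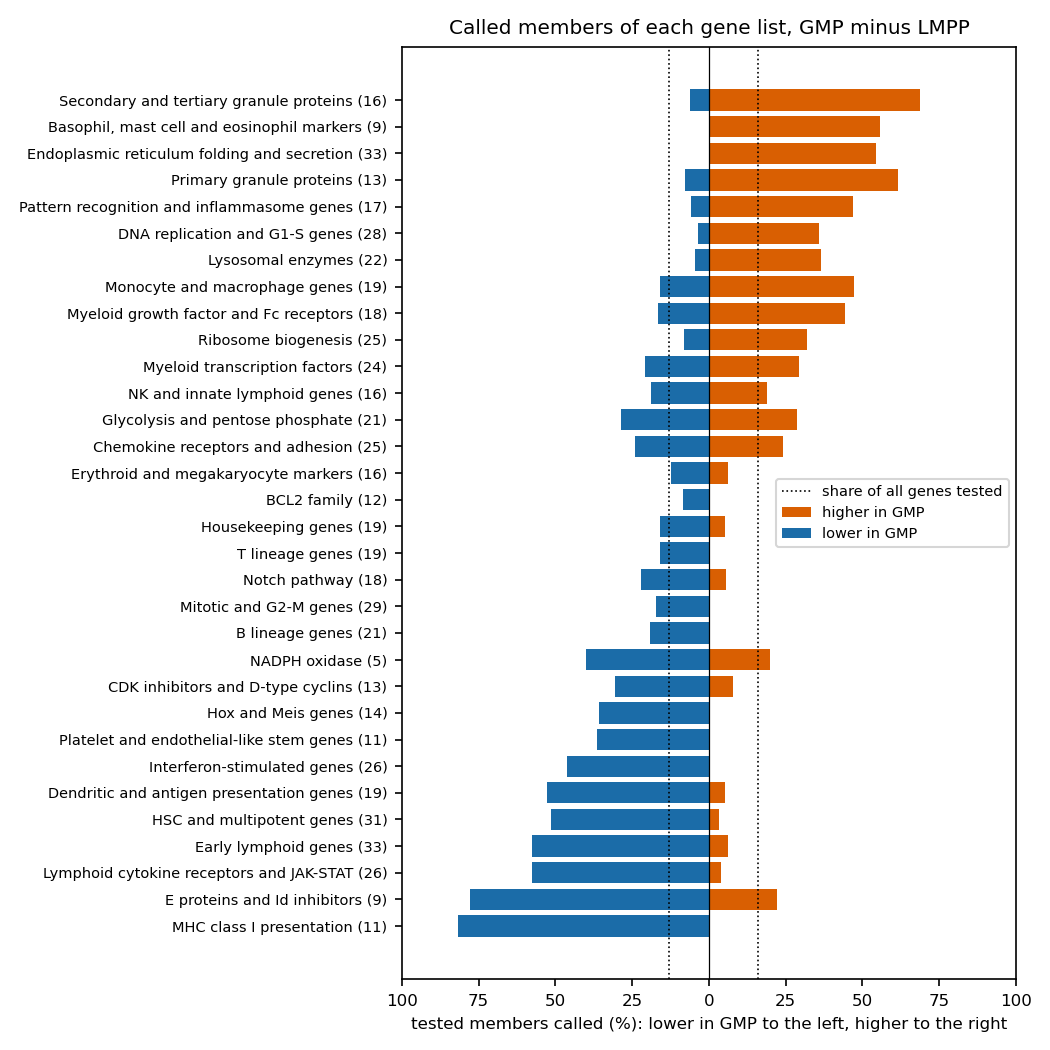
Share of tested members called higher in GMP (orange, right) or lower in GMP (blue, left) for each gene list, with the number tested in brackets and dotted lines at the shares over all genes tested (16% higher, 13% lower). Granule proteins, basophil and mast cell markers and endoplasmic reticulum genes reach furthest to the right, and MHC class I, E protein, cytokine receptor and early lymphoid genes furthest to the left.

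The other route out of the LMPP stage was given by the CLP arrays. Both comparisons use the same LMPP arrays, so the difference between them was tested as GMP minus CLP, in which 4177 genes were higher and 2437 lower of 13479 (31% and 18.1%, 49.1% called in all). In CLP minus LMPP 938 genes were higher and 2584 lower (6.96% and 19.2%, 26.1% called in all). Housekeeping centring turned these splits round, to 8351 higher and 430 lower in CLP minus LMPP and 1336 higher and 7734 lower in GMP minus CLP. The median over all genes was then 1.09 in CLP minus LMPP (-0.08 in the main fit) and -0.94 in GMP minus CLP (0.09 in the main fit), a shift that is the same for every gene, so the counts against CLP hold only for the deposited normalization. CLP minus LMPP counts were 395 and 1225 without LMPP array 1, 351 and 1223 without LMPP array 2, and 1492 higher without CLP array 2. Early lymphoid genes gave 2 higher and 19 lower in GMP, and 10 higher and 4 lower in CLP, each against LMPP, and 1 higher and 27 lower in GMP against CLP. For B lineage genes the counts were 0 higher and 4 lower in GMP, and 10 higher and 1 lower in CLP, each against LMPP, and 1 higher and 14 lower in GMP against CLP. Primary granule genes gave 8 higher and 1 lower in GMP, and 0 higher and 7 lower in CLP, each against LMPP, and 12 higher and 0 lower in GMP against CLP.

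Several genes differed between these routes. Ebf1 differed by 7.93 ± 0.34 in CLP minus LMPP and by -8.11 ± 0.30 in GMP minus CLP (adjusted p = 3.37e-13). Il7r differed by 6.02 ± 0.40 in CLP minus LMPP and by -7.65 ± 0.35 in GMP minus CLP (adjusted p = 8e-12). Notch1 differed by 1.36 ± 0.28 in CLP minus LMPP and by -1.35 in GMP minus LMPP, and by -2.70 ± 0.25 between GMP and CLP (adjusted p = 1.13e-07). Dntt and Flt3 were not called in CLP minus LMPP, at 0.81 ± 0.35 (adjusted p = 0.0944) and 0.27 ± 0.39 (adjusted p = 0.652), and differed by -8.85 ± 0.31 and -4.86 ± 0.35 in GMP minus CLP.

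Some myeloid genes that LMPP already express were lower in CLP. Prtn3 differed by -6.57 ± 0.34 in CLP minus LMPP and by 8.69 ± 0.30 in GMP minus CLP (adjusted p = 1.98e-13). Cebpa differed by -1.64 ± 0.23 and 2.95 ± 0.20 in the same order (adjusted p = 2.14e-09 for the second), and Ctsg by -4.32 ± 0.43 and 7.39 ± 0.39. The stem cell gene Hlf differed by -3.76 in GMP minus LMPP and by -4.26 ± 0.29 in CLP minus LMPP, and Procr by -3.09 and -3.83 ± 0.25 in the same order. CLP replicates were the noisiest, with a root-mean-square SD per gene of 0.561, against 0.171 in GMP and 0.244 in LMPP. Housekeeping centring adds the shift above to each of these values. With it Cebpa was no longer called in CLP minus LMPP (-0.47 ± 0.43, adjusted p = 0.329), while Dntt (1.98 ± 0.37) and Flt3 (1.44 ± 0.43) were called higher there. With the actin covariate Notch1 was no longer called in CLP minus LMPP (0.91 ± 0.45, adjusted p = 0.378). With CLP array 2 as the only CLP array 566 genes were higher and 663 lower in CLP minus LMPP, and 1799 higher and 1084 lower in GMP minus CLP.

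Over the wild-type populations Mpo averaged 8.24 ± 0.50 in hematopoietic stem cells (HSC), 11.38 ± 0.47 in multipotent progenitors (MPP), 13.89 ± 0.01 in GMP, 11.34 ± 0.27 in LMPP, 10.20 ± 0.14 in CLP and 4.08 ± 0.35 in pro-B cells (SD, n = 2 arrays each, 3 for GMP and CLP). MPP and LMPP did not differ beyond their spread, and GMP stood highest. Dntt averaged 8.46 ± 0.60 in HSC, 7.99 ± 0.41 in MPP, 4.70 ± 0.04 in GMP, 12.74 ± 0.03 in LMPP, 13.55 ± 0.16 in CLP and 12.19 ± 0.77 in pro-B cells. GMP had the lowest Dntt level of these populations. S100a8 averaged 10.71 ± 0.08 in GMP and between 3.27 and 4.32 in the other 6 wild-type populations, but 12.03 ± 0.05 and 10.55 ± 0.53 in NK cells with and without Ets1 (n = 2 each).

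**Figure D5:**
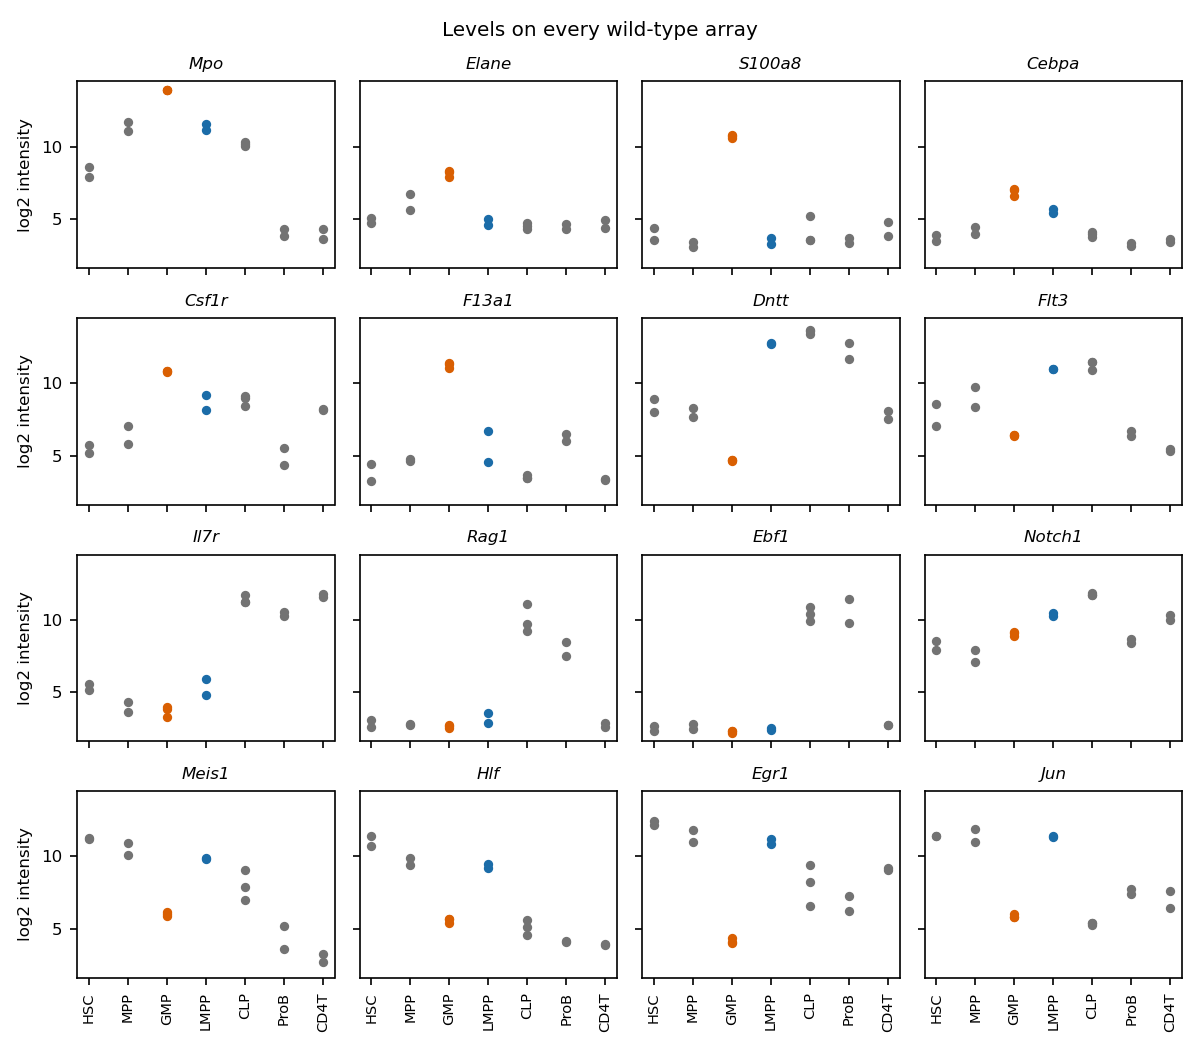
Log2 intensity of 16 genes on every wild-type array, for HSC, MPP, GMP (orange), LMPP (blue), CLP, ProB and CD4T, 1 point per array. Mpo, Elane, S100a8, Cebpa, Csf1r and F13a1 peak in GMP, Dntt, Flt3, Il7r and Notch1 lie lower in GMP than in LMPP and CLP, and Meis1, Hlf, Egr1 and Jun are high in HSC, MPP and LMPP and low in GMP.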

How the data were processed

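Expression was measured on Affymetrix Mouse Genome 430 2.0 arrays (45101 probe sets). The deposited table holds linear intensity, 1 value per probe set and array. It was made by the authors with robust multi-array averaging (RMA), per the submitters' processing notes, with no version given in the sources used here. RMA shares one normalization over all arrays and fits a probe effect per probe set, so levels of different genes are not comparable and low values are compressed. A log2 scale had been assumed, but the values were linear and log2 was taken.

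Groups came from the titles and descriptions of the arrays. Each gene was read on its single-symbol probe set of highest mean (18194 genes), and the 13479 that exceeded the median of their array on 2 or more arrays were tested, 4715 being left out as dim. limma 3.58.1 (R 4.3.3; lmFit, eBayes with an intensity trend) was fitted to all 20 arrays in 9 groups with 11 residual degrees of freedom, with Benjamini-Hochberg adjustment at 0.05. Contrasts were GMP minus LMPP, CLP minus LMPP and GMP minus CLP. The number of arrays limits the precision, and the table gives no detection calls.

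Genes named are the 15 largest called gains and losses with no overlap between arrays, up to 6 called members a list and direction with the largest change, and the sort antigens. List members outside this rule, most of them not called or of smaller change (such as Camp, Ltf, Ctsc, Lyz1, Mef2c, Satb1, Cebpb, Klf4 and Ebf1), and the genes under other observations were chosen after their values were seen. The members and lists were chosen with earlier results of these data known. Of the 655 genes on the lists, 57 are on more than 1 list, so the counts of different lists are not independent. Listed genes without a tested probe set were not analysed here. In 20 simulations with 200 of 13479 genes changed, the fit recovered 32.1% of changes of 1 log2 unit and 89.1% of 2, and 5.25% of calls were false. The simulated noise of a gene was the same in every group, and no 3′ bias was simulated. In the data 28.9% of genes were called and CLP arrays varied more than GMP or LMPP arrays, so these rates may not hold here. Of 3710 further probe sets of the called genes, 73.5% had the same direction and 3.1% were called in the opposite one. Deviations of same-numbered GMP and LMPP arrays correlated at 0.03 and -0.01, which with 2 LMPP arrays cannot show whether the arrays are paired. Motifs were counted on both strands in RefSeq promoters. The alternatives tried were other filters, probe set rules, normalizations, array sets, array weights, a replicate block, single arrays left out and the actin covariate.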

Additional observations from a re-analysis of the deposited data

How the results depend on the processing

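Counts are given as higher and lower. GMP minus LMPP had 2150 and 1749 genes called, and moved by over 1.5 times with every probe set tested on its own (3985 and 3129), only the compared arrays in the fit (3904 and 3618), array weights (3963 and 3565), housekeeping centring (lower 1080) and the actin covariate (lower 564). Leaving out 1 array gave 1290 to 1929 higher and 954 to 1366 lower. CLP minus LMPP (938 and 2584) gave 1960 and 4230 with every probe set, 1606 higher with repeated quantile normalization, 8351 and 430 with housekeeping centring, 152 and 399 with only the compared arrays, 507 higher at 1 log2 unit or more, 178 and 157 with the actin covariate, 566 and 663 with CLP array 2 alone, and 351 to 1492 higher and 1223 to 3731 lower without 1 array, the highest without CLP array 2. GMP minus CLP (4177 and 2437) gave 7353 and 4875 with every probe set, 1336 and 7734 with housekeeping centring, 1799 and 1084 with CLP array 2 alone, and 1008 lower at 1 log2 unit or more. With the actin covariate these genes changed sign: Cyba 0.48, Lmo2 0.33, Pcna 1.98, Psap 0.13, Runx3 -1.07, Stat4 0.58 and Tlr7 0.17. Ccr2 changed sign with the mean over its probe sets (1.19). The cause was not tested. With the replicate number as a block the counts were 2465 and 1691, and 93.9% of the calls were kept. Same-numbered GMP and LMPP arrays correlated at 0.03 and -0.01 in their deviations. The deviations of the 2 LMPP arrays mirror each other, so these values cannot show whether the numbers pair the arrays. The lone LMPP array left in a fit is assumed to vary like the other groups. Levels near the array median limit what small differences can show.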

Other observations

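The genes below were chosen after their values were seen. Immediate early genes, which cells switch on quickly after a stimulus, were mostly lower: of 22 tested, 19 were lower in GMP and 0 higher, with a median of -3.96 and a range of -6.87 to 1.00, beside 13% lower over all genes. Egr1, a transcription factor of this class, measured 4.07, 4.38 and 4.01 in the GMP arrays, against 11.18 and 10.86 in the LMPP arrays. Jun, a subunit of the AP-1 factor, measured 5.79, 6.0 and 5.78 in the GMP arrays, against 11.30 and 11.37 in the LMPP arrays. Nr4a1, an orphan nuclear receptor, measured 5.53, 5.66 and 5.69 in the GMP arrays, against 10.91 and 9.06 in the LMPP arrays. Each was lower on every GMP array and differed by -6.87 ± 0.51, -5.48 ± 0.32 and -4.36 ± 0.51, with limma's adjusted p of 1.26e-08, 3.67e-10 and 3.75e-06. Jun averaged 11.38 ± 0.03 in HSC, 11.45 ± 0.63 in MPP, 5.86 ± 0.12 in GMP, 11.33 ± 0.05 in LMPP and 5.38 ± 0.07 in CLP (SD). The transcription factor Klf2 (-4.46 ± 0.44) and Junb (-4.12 ± 0.39) were lower as well.

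Several genes outside the usual myeloid and lymphoid sets had large differences. Met, the receptor for hepatocyte growth factor, measured 8.94, 8.91 and 8.65 in the GMP arrays, against 2.88 and 3.14 in the LMPP arrays. Prom1, which encodes the surface glycoprotein prominin, measured 9.36, 9.35 and 9.10 in the GMP arrays, against 3.06 and 3.13 in the LMPP arrays. App, the amyloid precursor protein gene, measured 10.61, 10.75 and 10.51 in the GMP arrays, against 5.25 and 5.80 in the LMPP arrays. All 3 were higher on every GMP array, and Met averaged 2.39 to 3.27 in the other wild-type populations. Ddx4, an RNA helicase best known from germ cells, measured 2.34, 2.26 and 2.27 in the GMP arrays, against 8.08 and 6.07 in the LMPP arrays and averaged 2.20 to 3.95 in the other wild-type populations. It stood well above background on both LMPP arrays alone among these arrays.

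Rps15, a ribosomal protein gene, measured 7.85, 7.59 and 7.68 in the GMP arrays, against 12.35 and 12.43 in the LMPP arrays, a difference of -4.68 ± 0.24, and a second probe set of Rps15 differed by -4.40. Atp5g2, a subunit of the mitochondrial ATP synthase, measured 6.82, 6.60 and 6.80 in the GMP arrays, against 10.55 and 10.79 in the LMPP arrays. Both were lower on every GMP array, and neither gene lost its call with the actin covariate. Uty, a Y-linked gene, measured 5.37, 5.16 and 5.36 in the GMP arrays, against 3.11 and 3.28 in the LMPP arrays, a difference of 2.10 ± 0.26. A second probe set of Uty was lower (-0.62 ± 0.21, adjusted p = 0.0443 over probe sets), and the mean over its probe sets differed by 0.53. Uty therefore cannot be given a direction. Of 4 sex-linked genes tested (5 listed), Uty on its main probe set was the 1 higher, 0 were lower and 3 were not called, with a median of 0.41.

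Neutrophil granule genes were also high on the NK arrays. Ngp averaged 11.44 ± 0.11 in NK cells with Ets1 and 10.07 ± 0.71 in those without it, beside 8.10 ± 0.20 in GMP and 4.53 ± 0.12 in LMPP. Ltf averaged 9.53 ± 0.04 and 7.60 ± 0.77 in the same NK groups, 5.46 ± 0.26 in GMP and 3.39 ± 0.38 in LMPP. The mast cell gene Cpa3 averaged 6.93 ± 0.31 in HSC and 8.56 ± 0.51 in MPP, 9.09 ± 0.08 in GMP and 3.91 ± 0.40 in LMPP, so LMPP lay lowest of these 4 populations.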
